A study of Mus musculus with 12 samples.

Results

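The MHC class II presentation genes examined here were Cd74, H2-Aa, H2-Ab1, H2-Eb1, H2-DMa and Ciita, a group given by name. They made up 6 of the 18193 genes tested and were represented by 14 of the 34945 probe sets that carried exactly 1 gene symbol, namely 1 each for Cd74 and H2-Eb1, 4 for H2-Aa, 3 each for H2-Ab1 and Ciita, and 2 for H2-DMa. Where a gene had several probe sets, the brightest by its mean of 12 arrays is called the lead probe set and stands for the gene. The values came from intact glomeruli, the filtering units of the kidney, which were isolated with magnetic beads from male mice aged 6 to 8 weeks. Cultures of 5000 glomeruli were deprived of serum and then exposed for 12 hours to murine TNF at 50 ng/ml, and their RNA was hybridized to 12 expression arrays, 3 per genotype. The genotypes were wildtype C57BL/6J, Tnfr1-/- (B6.129-Tnfrsf1atm1Mak), Tnfr2-/- (B6.129-Tnfrsf1btm1Mwm) and Tnfr1,2-/-, which carried both targeted alleles. The deletions were present in every cell of the animal, and all 4 genotypes had received TNF. Arrays of glomeruli without TNF were not analysed here, so each comparison is between genotypes in the presence of TNF.

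MHC class II molecules display peptides from engulfed or internalized protein to CD4+ T cells and are made mainly by dendritic cells, macrophages and B cells. In the endoplasmic reticulum the alpha and beta chains pair with the invariant chain, which occupies their groove and guides them to endosomes, where proteases trim it and the DM molecule exchanges its last fragment for peptide. The transactivator CIITA, which binds no DNA itself, docks on factors that hold the X and Y boxes of class II promoters, and interferon gamma switches it on in cells outside the immune system, those of the kidney among them.

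H2-Aa and H2-Eb1, the alpha chain gene of I-A and the beta chain gene of I-E, are neighbours in the class II region and had the most similar profiles of all pairs of the group. The stretch from 110 bases before the annotated start to the base just before it is given for both, since the factors that read it are among the genes described further on. In these stretches (RefSeq, GRCm38.p6) capitals mark GCAACT, a part of the X box, TGACGTCA, a cyclic AMP response element, and CTGATTGG, the core of the Y box. Only exact letters were marked.
H2-Aa, chr17:34287824-34287933, minus strand: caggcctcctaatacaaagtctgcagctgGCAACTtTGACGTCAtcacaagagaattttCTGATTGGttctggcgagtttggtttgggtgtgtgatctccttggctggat
H2-Eb1, chr17:34305757-34305866, plus strand: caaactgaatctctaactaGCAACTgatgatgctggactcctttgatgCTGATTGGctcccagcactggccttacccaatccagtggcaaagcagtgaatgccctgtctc

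The Y box core began at position -51 from the start of H2-Aa and -62 from that of H2-Eb1, 30 and 29 bases after the first base of GCAACT. TGACGTCA was found in the H2-Aa stretch and not in that of H2-Eb1, where forms with other letters were not searched. The 250 bases before a start were searched on both strands in 32851 windows of all genes. The letters CTGATTGG were found in 3.83% of them, GCAACT in 9.01% and TGACGTCA in 1.55%. GCAACT followed on the same strand by CTGATTGG, with their starts 25 to 40 bases apart, was found in 7 windows (0.0213%), which belonged to H2-Aa, H2-Eb1, H2-Eb2, Gstz1, Mrps9, Narf and Tigd3. The letters and the distance were chosen after both stretches had been read. The 2 windows of H2-DMa held none of these letters, and windows of Cd74, H2-Ab1 and Ciita were not used here.

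Arrays differed in ways that the genotype did not set. The signal of the beta-actin control at the 3′ end exceeded that at the 5′ end by 0.67 to 1.005 (log2) on 7 arrays, called array set 1, and by 1.82 to 2.30 on 5 arrays, called array set 2, which were replicate 3 of all genotypes and replicate 2 of Tnfr1,2-/-. A larger difference is a sign of shorter or more degraded RNA. The array medians lay between 5.59 and 5.64. Tnfrsf1b, the gene of TNF receptor 2, was at 4.95 to 5.66 on the 6 arrays lacking it and at 6.76 to 8.36 on the others. Tnfrsf1a, the gene of TNF receptor 1, was at 9.11 to 9.61 in Tnfr1,2-/-, at 9.24 to 10.2 in Tnfr1-/- and at 10.2 to 10.8 elsewhere, so its probe set still gave signal without the receptor. The highest of the Tnfr1-/- arrays was replicate 2 at 10.18, just under wildtype replicate 3 at 10.23. The change of Tnfrsf1a in Tnfr1-/-, -0.82, was not called (limma adjusted p = 0.217), whereas that of -1.27 in Tnfr1,2-/- was (adjusted p = 0.0228). The glomerular markers Podxl of podocytes, Emcn of endothelium and Pdgfrb of mesangial cells were above the array median on all 12 arrays.

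None of the 6 class II genes was called in a mutant against wildtype, at a limma adjusted p under 0.05 and at least 1.5-fold. In Tnfr1,2-/- glomeruli 0 of 6 were called where 1.3% of all genes were, in Tnfr1-/- 0 of 6 where 1.2% were, and in Tnfr2-/- 0 of 6 where 0% were. At an unadjusted p under 0.05 the counts were again 0 of 6 in each of these comparisons, beside 8.44%, 6.35% and 0.704% of all genes, and SAM, the test of the study's methods, called 0 of 6 as well. With arrays weighted by their agreement with the rest of their genotype, limma called 2 of 6 in Tnfr1,2-/-, H2-Aa (log2 change 1.46, adjusted p = 0.0226) and H2-Eb1 (0.70, adjusted p = 0.028). In that fit replicate 2 of Tnfr1,2-/-, where both genes were highest, had a weight of 3.01 and the other arrays of its genotype 0.374 and 0.403, and 1035 genes were called in all. In all, limma called 236, 219 and 0 genes in these comparisons and SAM 367, 280 and 4. The median log2 change of the 6 genes was 0.10 in Tnfr1,2-/-, 0.36 in Tnfr1-/- and 0.24 in Tnfr2-/-, beside medians within 0.01 of 0 over all genes. The estimates were above 0 for 4 of 6 genes in Tnfr1,2-/- and for 6 of 6 in both single mutants. The 3 comparisons share the wildtype arrays and are not independent of each other. With 3 arrays against 3 an exact permutation test cannot go below p = 0.1, and the labels do not say whether arrays of a genotype came from separate animals, so p-values measure the spread between arrays.

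**Figure D1:**
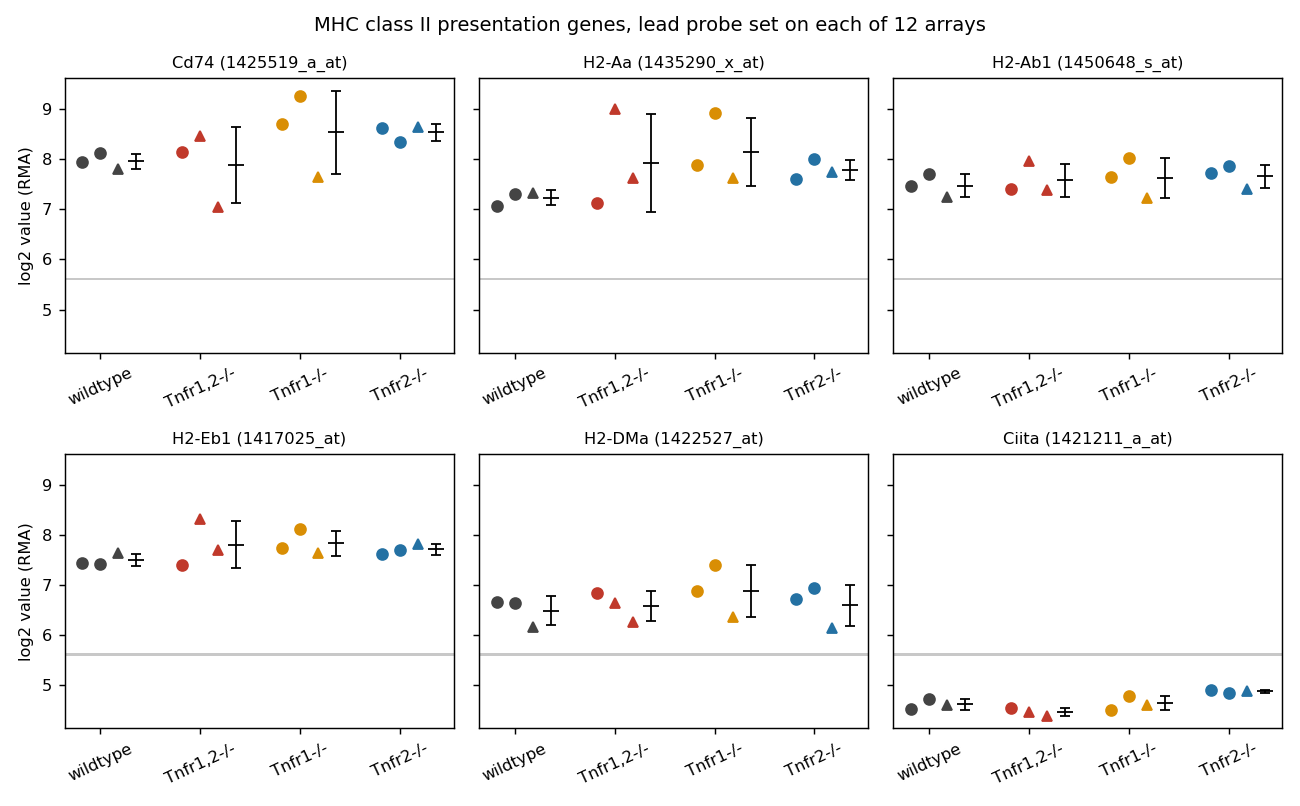
Log2 value of the lead probe set of each class II gene on each of the 12 arrays by genotype, with circles for array set 1 and triangles for array set 2. Black bars beside the points give the mean and SD of 3 arrays, and the grey line the range of the array medians, 5.59 to 5.64. H2-Aa is highest on Tnfr1,2-/- replicate 2 (9.01) and Tnfr1-/- replicate 2 (8.91), and Ciita lies under the grey line throughout.

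H2-Aa, the I-A alpha chain, had the largest estimates of the group in Tnfr1,2-/- and Tnfr1-/- glomeruli. Its log2 values were 7.07, 7.30 and 7.33 in wildtype, 7.12, 9.01 and 7.63 in Tnfr1,2-/-, 7.88, 8.91 and 7.63 in Tnfr1-/- and 7.60, 8.00 and 7.74 in Tnfr2-/- for replicates 1, 2 and 3. Every array of both single mutants was above every wildtype array, whereas 1 array of Tnfr1,2-/- lay within the wildtype range. The log2 change was 0.91 (SE 0.43, 95% interval -0.03 to 1.85, limma adjusted p = 0.838) in Tnfr1-/-, 0.69 (SE 0.43, -0.25 to 1.63, adjusted p = 0.727) in Tnfr1,2-/- and 0.55 (SE 0.43, -0.39 to 1.49, adjusted p = 1) in Tnfr2-/-. The Tnfr1,2-/- estimate rested on replicate 2 of that genotype: without this array it was 0.14. Without replicate 2 of Tnfr1-/- the estimate for that genotype was 0.52. Within array set 1, where Tnfr1,2-/- has 1 array, the change in Tnfr1,2-/- was -0.06, and within array set 2, where it has 2 arrays against 1 of wildtype, it was 0.99.

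The other probe sets of H2-Aa did not give the same sizes. The second by mean level ranged from 6.48 to 6.85 in wildtype and had a log2 change of 0.66 in Tnfr1,2-/- and 0.55 in Tnfr1-/-. The third, with a wildtype mean of 6.29 ± 0.16 (SD, n = 3), changed by 0.07 in Tnfr1,2-/- and 0.47 in Tnfr1-/-. The fourth, at 2.18 to 2.84 on all 12 arrays, was far under the array medians. None of these 4 probe sets was called in a mutant against wildtype when all probe sets were tested (limma). The endings _x_at and _s_at mark probes that may pair with several transcripts, and H2-Aa has no probe set without such an ending among these 4, so a share of related transcripts in its signal was not tested.

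H2-Eb1, the I-E beta chain, followed the same arrays at a smaller scale. Its log2 values were 7.43, 7.42 and 7.65 in wildtype, 7.39, 8.31 and 7.71 in Tnfr1,2-/-, 7.73, 8.12 and 7.64 in Tnfr1-/- and 7.61, 7.70 and 7.83 in Tnfr2-/-. The groups overlapped in each comparison with wildtype, and the highest arrays were again replicate 2 of Tnfr1,2-/- and replicate 2 of Tnfr1-/-. The log2 change was 0.30 (SE 0.21, 95% interval -0.17 to 0.78, limma adjusted p = 0.766) in Tnfr1,2-/- and 0.05 without replicate 2 of that genotype. In Tnfr1-/- it was 0.33 and in Tnfr2-/- 0.21, with adjusted p = 0.9999 and 1.

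H2-Ab1, the I-A beta chain, differed least between genotypes on its lead probe set. Its values were 7.46, 7.70 and 7.25 in wildtype, 7.40, 7.96 and 7.38 in Tnfr1,2-/-, 7.65, 8.02 and 7.23 in Tnfr1-/- and 7.72, 7.85 and 7.41 in Tnfr2-/-. All groups overlapped. The log2 changes were 0.11, 0.16 and 0.19 in Tnfr1,2-/-, Tnfr1-/- and Tnfr2-/-, and the 95% interval in Tnfr1,2-/- ran from 0.760 to 1.53 times the wildtype level.

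The 3 probe sets of H2-Ab1 differed in how far the array set moved them. The second by mean level was lower by 1.05 (log2, SE 0.23) in array set 2 than in array set 1 after adjustment for genotype and was called (limma adjusted p = 0.00621 over all probe sets, of which 15.5% were called). The third was lower by 0.54 (adjusted p = 0.0479) and the lead probe set by 0.26 (adjusted p = 0.226). In Tnfr1,2-/- glomeruli, with 2 of 3 arrays in array set 2, the second and the third had log2 changes of -0.38 and -0.45 and the lead probe set 0.11, none of them called, so the sign for H2-Ab1 depended on the probe set. Their lowest values, 4.52 and 4.66, both came from Tnfr1,2-/- replicate 3.

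**Figure D2:**
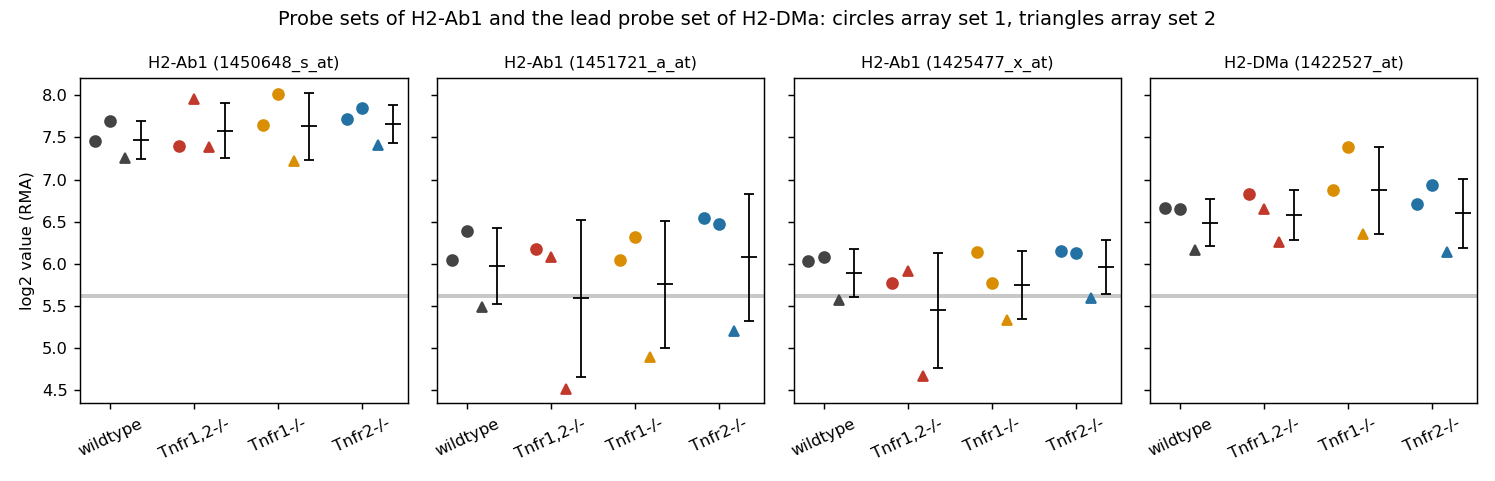
Log2 values of the 3 probe sets of H2-Ab1 and of the lead probe set of H2-DMa by genotype, with circles for array set 1, triangles for array set 2, black bars for the mean and SD of 3 arrays and a grey line for the array medians. In the second panel the triangles lie under the circles of their genotype, by 1.05 on the log2 scale over the 12 arrays after adjustment for genotype.

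Cd74, the invariant chain, spread widely in the mutants that lack TNF receptor 1. Its log2 values were 7.95, 8.12 and 7.81 in wildtype and 8.62, 8.34 and 8.64 in Tnfr2-/-, so all arrays of Tnfr2-/- were above all wildtype arrays. They were 8.15, 8.47 and 7.04 in Tnfr1,2-/- and 8.70, 9.27 and 7.64 in Tnfr1-/-, and in both of these genotypes replicate 3 was the lowest array and replicate 2 the highest. The log2 change against wildtype was -0.07 (SE 0.40, 95% interval -0.96 to 0.81, limma adjusted p = 0.970) in Tnfr1,2-/-, 0.58 (SE 0.40, adjusted p = 0.9999) in Tnfr1-/- and 0.57 (SE 0.40, adjusted p = 1) in Tnfr2-/-. Leaving out 1 array at a time moved the estimate in Tnfr1,2-/- between -0.37 and 0.35. In linear terms its interval ran from 0.513 to 1.76 times the wildtype level, so at this number of arrays a change of 1.5-fold in either direction was within it.

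H2-DMa, the alpha chain of the DM molecule that loads peptide, had values of 6.66, 6.65 and 6.16 in wildtype, 6.83, 6.65 and 6.25 in Tnfr1,2-/-, 6.87, 7.39 and 6.35 in Tnfr1-/- and 6.71, 6.93 and 6.14 in Tnfr2-/-. Replicate 3 was the lowest array of every genotype, and all 4 of these arrays belonged to array set 2. The lead probe set was lower by 0.58 (SE 0.12) in array set 2 after adjustment for genotype (limma adjusted p = 0.00475), just short of 1.5-fold. Between genotypes the groups overlapped, with log2 changes of 0.09, 0.38 and 0.11 in Tnfr1,2-/-, Tnfr1-/- and Tnfr2-/-. Its second probe set was at 3.74 to 4.35 on the 12 arrays.

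Ciita, the transactivator gene, was under the array median on all 12 arrays with each of its 3 probe sets. The lead probe set was at 4.52, 4.73 and 4.61 in wildtype, 4.55, 4.47 and 4.39 in Tnfr1,2-/-, 4.51, 4.79 and 4.62 in Tnfr1-/- and 4.90, 4.85 and 4.89 in Tnfr2-/-. All Tnfr2-/- arrays were above all arrays of the other genotypes. The log2 change of Tnfr2-/- against wildtype was 0.26 (SE 0.12, 95% interval -0.0009 to 0.52, limma adjusted p = 1), and that of Tnfr1,2-/- against Tnfr2-/- was -0.41 (SE 0.12, adjusted p = 0.211, exact permutation p = 0.1, the smallest that 3 against 3 arrays can give). The second probe set did not order the genotypes this way: its means were 4.56 ± 0.07 in wildtype, 4.37 ± 0.18 in Tnfr2-/- and 4.28 ± 0.30 in Tnfr1,2-/- (SD, n = 3). At values this low a level of the transcript above background was not tested, since the deposited values hold no detection call.

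Counted by overlap, 0 of 6 genes had groups that did not overlap in Tnfr1,2-/- against wildtype, beside 12.4% of all genes. In Tnfr1-/- it was 1 of 6, H2-Aa, beside 11% of all genes in either direction and 5.5% with Tnfr1-/- higher. In Tnfr2-/- it was 3 of 6, Cd74, H2-Aa and Ciita, all higher than wildtype, beside 4.94% of all genes in either direction and 2.32% with Tnfr2-/- higher. The 6 genes were measured on the same arrays and are not independent, and none of the 3 passed the adjustment over all genes.

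The order of the genotype means was not the same across the group. Wildtype was the lowest genotype for H2-Aa, H2-Ab1, H2-Eb1 and H2-DMa, while Tnfr1,2-/- was the lowest for Cd74 and Ciita. Tnfr1-/- was the highest for Cd74, H2-Aa, H2-Eb1 and H2-DMa, and Tnfr2-/- for H2-Ab1 and Ciita. No pair of genotypes in these orders differed at the threshold.

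The same held between mutants and over the receptor loci. In Tnfr1,2-/- against Tnfr1-/- 0 of 6 genes were called (0.0055% of all genes), and all 6 estimates were lower in Tnfr1,2-/-, with a median log2 change of -0.20. In Tnfr1,2-/- against Tnfr2-/- 0 of 6 were called (1.39% of all genes), with a median of -0.05. Ciita was there the 1 of 6 at an unadjusted p under 0.05 (8.54% of all genes) and the 1 of 6 whose groups did not overlap (11.9%). In Tnfr1-/- against Tnfr2-/- 0 of 6 were called (1.2% of all genes), and Ciita, lower in Tnfr1-/-, was the 1 of 6 whose groups did not overlap (10.3%). Over the 6 arrays without and the 6 with TNF receptor 1, here called the Tnfr1 locus, 0 of 6 were called where 2.52% of all genes were, and 1 of 6, Ciita, was at an unadjusted p under 0.05 (11% of all genes). The estimates for this locus were 0.52 for H2-Aa (95% interval -0.14 to 1.19), 0.21 for H2-Eb1, 0.18 for H2-DMa, 0.04 for H2-Ab1, -0.04 for Cd74 and -0.19 for Ciita, whose limma adjusted p was 0.414 and whose exact permutation p was 0.0498 before adjustment for any other test. Over the Tnfr2 locus 0 of 6 were called (0.0275% of all genes), with estimates between -0.09 and 0.16. SAM was run on pairs of genotypes and called 0 of 6 in each of them.

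Whether the change made by the loss of TNF receptor 1 depended on TNF receptor 2 was tested by the interaction of the loci. 0 of 6 genes were called (0% of all genes), and 1 of 6, Ciita, was at an unadjusted p under 0.05, beside 1.35% of all genes. All 6 estimates were negative, with a median of -0.42 and a range from -1.23 for Cd74 to -0.24, which means that the double mutant lay below the sum of the single mutants' changes. The smallest limma adjusted p among them was 0.998.

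The genes of MHC class I presentation, a separate route for peptides made inside the cell, were set beside the class II genes because class I genes neighbour them in the same region and answer to related signals. Of 15 listed genes 13 were measured. In Tnfr1,2-/- glomeruli 6 of 13 fell and none rose (1.3% of all genes called in either direction), with a list median of -1.09 (log2). In Tnfr1-/- 4 of 13 fell (1.2% of all genes called), with a median of -0.82. In Tnfr2-/- none passed the test (0% of all genes), with a median of 0.01. Over the Tnfr1 locus 8 of 13 fell (2.52% of all genes called). The count in Tnfr1-/- went from 4 to 2 without wildtype replicate 1, wildtype replicate 2, Tnfr1-/- replicate 1 or Tnfr1-/- replicate 3. Psmb8, a subunit of the immunoproteasome, was at a mean of 10.4 ± 0.17 in wildtype and 7.40 ± 0.33 in Tnfr1,2-/- (SD, n = 3), a log2 change of -3.02 (SE 0.36, limma adjusted p = 0.0012). Psmb10, another of its subunits, changed by -3.04 (adjusted p = 0.00133) and Tapbp, which holds the peptide transporter next to class I, by -1.57 (adjusted p = 0.00347). The class I chain genes H2-K1, H2-D1 and B2m overlapped between Tnfr1-/- and wildtype. On Tnfr1-/- replicate 2 they were at 13.53, 13.47 and 13.49, above every wildtype array. On the Tnfr1,2-/- arrays each of these genes was below every wildtype array. Psmb8, Psmb9, Tap1 and Tap2 lie between H2-DMb1 and H2-Ob in the class II region itself. The class II group and the class I list were chosen with results of these data known, and their difference was not tested.

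**Figure D3:**
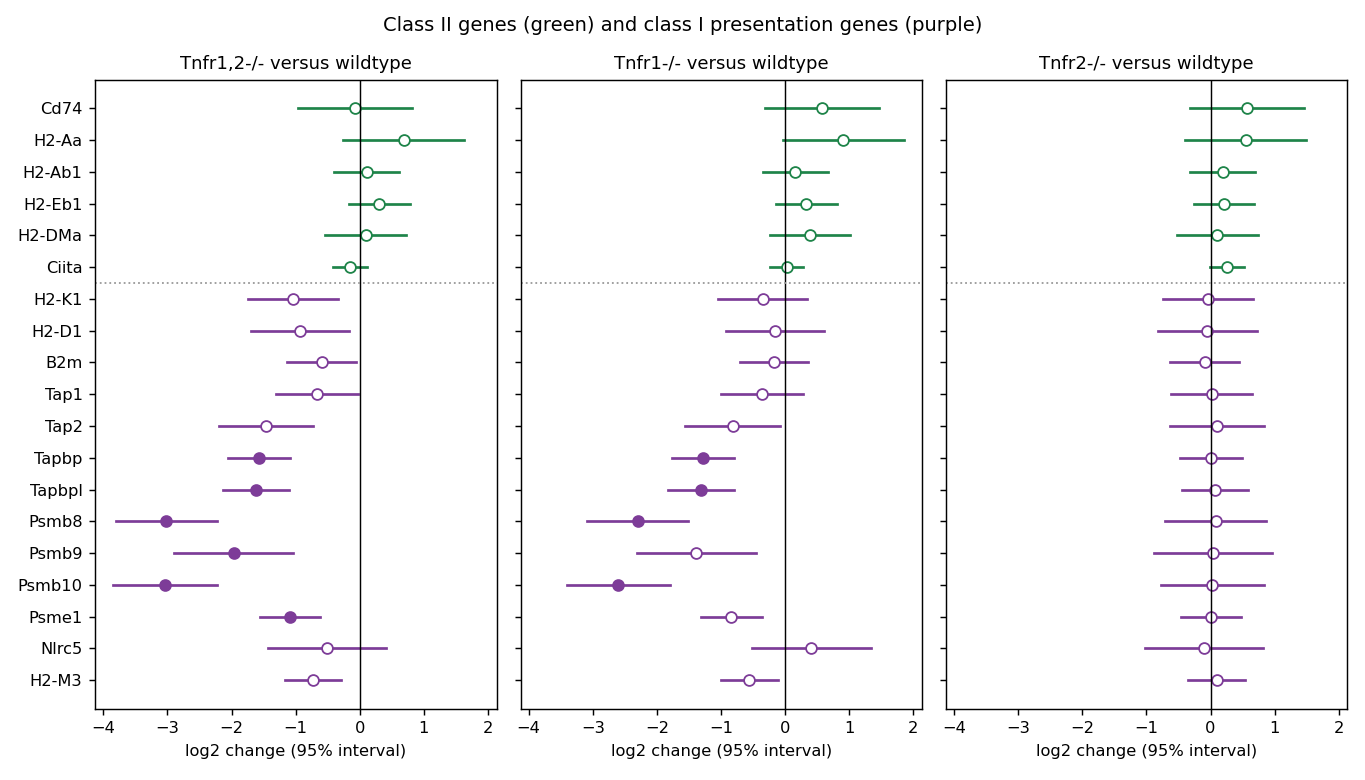
Log2 change of each class II gene (green) and each measured class I presentation gene (purple) in the 3 mutants against wildtype, with 95% intervals from limma. Filled points passed the test. No green point is filled, while 6 purple points are in Tnfr1,2-/- and 4 in Tnfr1-/-, all below 0.

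Of the other class II chains and DM and DO subunits, 5 of 6 listed genes were measured and none passed the test in any comparison. H2-Oa and H2-Ob, the chains of DO, which holds DM back, were at means of 4.80 and 3.43, and over the Tnfr1 locus H2-Ob had the smallest p of the list with an estimate of 0.19. H2-Eb2 had an estimate of -0.05. H2-Ea, the I-E alpha chain gene, which RefSeq annotates as a transcribed pseudogene, gave discordant probe sets: the brightest was at 7.07 to 7.81 on the 12 arrays and the dimmest at 2.35 to 2.68.

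Of the 7 factors of class II promoters, none passed the test in a mutant against wildtype. Over the Tnfr1 locus 1 of 7 fell, where 2.52% of all genes were called. It was Rfx5, a subunit of the factor that holds the X box, which fell by 0.84 on the log2 scale (SE 0.20, limma adjusted p = 0.048). Its means were 9.42 ± 0.24 in wildtype, 9.61 ± 0.28 in Tnfr2-/-, 8.79 ± 0.55 in Tnfr1,2-/- and 8.57 ± 0.37 in Tnfr1-/- (SD, n = 3). The call was lost when any 1 of 10 of the 12 arrays was left out, with adjusted p-values up to 0.12, while the estimate stayed between -0.97 and -0.70. It was also lost at the same estimate when all probe sets were tested (adjusted p = 0.0755). H2-Aa and H2-Eb1, whose promoter stretches hold the X box letters given above, had estimates of 0.52 and 0.21 over the same locus. Without replicate 2 of Tnfr1,2-/- and replicate 2 of Tnfr1-/- these were 0.06 and 0.01. Binding to these stretches was not measured, and a link between Rfx5 and these genes was not tested.

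Of 9 measured genes on the route from interferon gamma to Ciita, 1 fell in Tnfr1,2-/- (1.3% of all genes called) and over the Tnfr1 locus (2.52%). It was Irf1, a transcription factor of interferon responses, with a log2 change of -1.76 (SE 0.33, limma adjusted p = 0.0215) in Tnfr1,2-/- and -1.65 (SE 0.23, adjusted p = 0.00166) over the locus. Ifng itself was at a mean of 2.77, far under the array medians. Ifngr1, a chain of the interferon gamma receptor, had an estimate of -0.47 over the Tnfr1 locus with an adjusted p of 0.0171, which was short of 1.5-fold. The transactivator that this route feeds, Ciita, was at 4.47 in Tnfr1,2-/- and 4.62 in wildtype on average.

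None of the 6 proteases and other enzymes of endosomal processing passed the test in any comparison, Ctss, the cathepsin that trims the invariant chain in immune cells, included. The 2 with the smallest p over the Tnfr1 locus were Lgmn (0.39) and Ifi30 (-0.21), the latter a reductase of antigens in endosomes. None of the 4 genes of class II turnover passed it either, with Marchf8, a ubiquitin ligase that marks class II for removal, at -0.29 and Marchf1 at -0.05.

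Of 6 costimulatory and coinhibitory ligands, which accompany class II on presenting cells, 3 fell over the Tnfr1 locus (2.52% of all genes called). They were Icosl (-1.87, SE 0.36, limma adjusted p = 0.0139), Cd40 (-0.95, SE 0.14, adjusted p = 0.00194) and Cd274, the ligand of PD-1 (-0.96, SE 0.16, adjusted p = 0.0049). Against wildtype 1 of 6, Cd274, fell in Tnfr1,2-/- (-1.10, limma adjusted p = 0.0341, 1.3% of all genes called). In Tnfr1-/- it was 1 of 6, Cd40 (-0.98, limma adjusted p = 0.0331, 1.2% of all genes called). Without replicate 2 of Tnfr1,2-/- and replicate 2 of Tnfr1-/- the call of Icosl was lost (adjusted p = 0.0657) at an estimate of -1.88. Cd80 and Cd86 were at means of 3.89 and 4.52, under the array medians, and did not pass the test.

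Within a genotype, Cd74 and H2-Aa varied more than most genes. Their residual SD was 0.57 and 0.61 on the log2 scale, which was above that of 93.1% and 94.4% of all genes, whose median was 0.24. H2-DMa stood at 79.7%, H2-Ab1 at 66.0%, H2-Eb1 at 60.0% and Ciita, the dimmest, at 2.80%. The mean of the 6 genes, each centred on its own mean, was highest on Tnfr1-/- replicate 2 (0.65) and Tnfr1,2-/- replicate 2 (0.38). It was lowest on Tnfr1,2-/- replicate 3 (-0.36), wildtype replicate 3 (-0.29) and wildtype replicate 1 (-0.25).

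The genes of the group followed each other in part from array to array. Over the 12 arrays 8 of 15 pairs had Pearson's r above 0.5, Cd74 and Ciita (0.57) among them, and the lowest was -0.001 for H2-Eb1 and Ciita. It was 0.96 for H2-Aa and H2-Eb1, 0.75 for H2-Aa and H2-Ab1, 0.70 for Cd74 and H2-Ab1 and 0.77 for H2-Ab1 and H2-DMa. For H2-Eb1 and H2-DMa it was 0.21, and 0.88 once genotype and array set had been taken out. With both taken out, all 10 pairs among the 5 genes other than Ciita had r above 0.5, and none of the 5 pairs with Ciita did. The gap was small: the highest pair with Ciita was Cd74 and Ciita (0.48), and the lowest of the others Cd74 and H2-DMa (0.63). Ciita was also under the array median on all 12 arrays. The arrays share preparation and normalization, so these values are a description.

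The 8 other genes most like the group's profile, by Pearson's r over 12 arrays among 10890 genes with a mean of at least 6, were Cela1 (0.90), Selenbp1 (0.88), Slc49a4 (0.87), Ncf1 (0.87), Il16 (0.86), AB124611 (0.84), Nxpe3 (0.83) and Lcp1 (0.83). Ncf1, a subunit of the phagocyte oxidase, Il16, a cytokine of lymphocytes, and Lcp1, an actin bundling protein of leukocytes, are known from blood cells. The other genes of the 8, among them Cela1, Selenbp1 and Slc49a4 with the highest r, were not assigned to a cell type here. Such r values are the highest of many and say nothing of shared control.

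Markers of leukocytes were high on some of the arrays where the class II genes were high. The summed linear signal of 12 macrophage markers ranged from 5296 to 8338 in wildtype, 3582 to 5436 in Tnfr1,2-/-, 4084 to 10038 in Tnfr1-/- and 5348 to 10426 in Tnfr2-/-, with 8 to 10 of the 12 markers above the array median. Its highest arrays were Tnfr2-/- replicate 2 and Tnfr1-/- replicate 2, and the latter was the highest for the class II genes. C1qb, a complement subunit made by macrophages, was at 10.6 and Cd68, a lysosomal protein of phagocytes, at 10.7 on that array, against 9.90 and 9.85 or less in wildtype. Lyz2, the lysozyme gene of phagocytes and the brightest marker of the list, was at 11.84 there and did not follow, since wildtype replicates 2 and 3 were at 12.14 and 11.90. On Tnfr1,2-/- replicate 2, where H2-Aa was highest, the brightest macrophage markers were not above the wildtype range. Lyz2, at 11.47, was below every wildtype array. Of the 12 markers 10 were above the array median on Tnfr1,2-/- replicate 2, against 9, 9 and 8 on the wildtype arrays. C1qb was at 8.93, Cd68 at 8.65 and the sum at 5436, each within the wildtype range. None of the macrophage, dendritic cell, B cell and T cell markers passed the test in any comparison between genotypes (limma).

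The summed signal of 7 B cell markers was also highest on Tnfr1-/- replicate 2 (648) and next on Tnfr1,2-/- replicate 2 (528), and lay between 326 and 515 on the other 10 arrays. Cd79a and Cd79b, the signalling chains of the B cell receptor, were at 7.81 and 6.58 on the former array and 6.21 and 6.40 on the latter. In wildtype they were at 6.24 to 6.72 and 5.57 to 5.74, so Cd79a on the latter array was below every wildtype array. Cd22, another bright marker of the list, was at 6.74 on the former array. On the latter it was at 6.39, within the wildtype range of 6.16 to 6.52. Of 9 dendritic cell markers 3 or 4 were above the array median on each array, and their sum, 829 to 1076 over all arrays, was at its lowest, 829, on Tnfr1,2-/- replicates 2 and 3, the former the array where H2-Aa was highest. The named markers went in different directions on that array. Itgax (5.72) and Zbtb46 (9.08), which endothelium expresses as well, were at their lowest of the 12 arrays. Flt3 was at its highest, 6.39 against 5.78 to 6.19 elsewhere. Zbtb46 is the brightest marker of the list and weighs most in the linear sum. The sum of 7 T cell markers ranged from 269 to 388.

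Tnfr1-/- replicate 2 stood apart in some podocyte markers too. Its podocyte sum of 10801 was the lowest of the 12 arrays, where the others lay between 13481 and 28358. Ptpro, a podocyte phosphatase, was at 9.43 against 10.7 to 12.0 elsewhere, and Podxl at 12.15 against 12.78 to 13.76. Synpo, another bright marker of the list, did not follow: at 11.95 it was above every wildtype array (11.05 to 11.71). The summed signal of 8 tubular markers was 1183 there and highest on Tnfr1-/- replicate 1 (1497), and of its named genes Aqp1, a water channel, was highest on replicate 2 (8.09), while Fxyd2 and Umod were highest on replicate 1 (9.78 and 8.34). The summed signal of 8 endothelial markers was 4145 to 5402 in wildtype, 5577 to 7301 in Tnfr1,2-/-, 6313 to 8695 in Tnfr1-/- and 5934 to 7654 in Tnfr2-/-, so in this sum every mutant array was above every wildtype array. The share of all genes that separate in this way was not counted. Of the 3 brightest markers of the list, Emcn and Kdr, a receptor of VEGF, did so. Cdh5 did not: wildtype replicate 1, at 9.87, was above Tnfr1,2-/- replicate 3 (9.74) and Tnfr2-/- replicate 2 (9.85). The list medians of the log2 change were 0.57, 0.70 and 0.54 in Tnfr1,2-/-, Tnfr1-/- and Tnfr2-/-. Of the 8 genes 1, Kdr, rose in Tnfr1-/- (1.09, SE 0.22, limma adjusted p = 0.0414, 1.2% of all genes called), and none passed the test in Tnfr1,2-/- or Tnfr2-/-. Of 8 mesangial markers 1, the integrin gene Itga8, rose in Tnfr1-/- (1.40, limma adjusted p = 0.00524, 1.2% of all genes called) and over the Tnfr1 locus (0.98, limma adjusted p = 0.00246, 2.52% of all genes called). The part of cell composition in the class II values was not tested. In RNA of whole glomeruli, more cells of a type and more RNA per cell cannot be told apart.

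**Figure D4:**
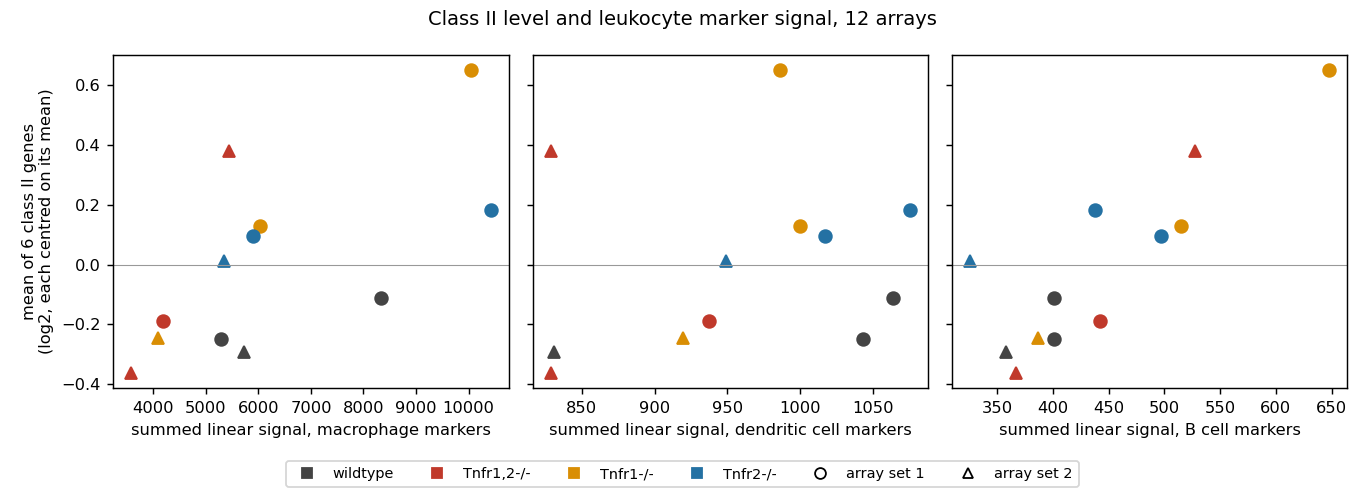
Mean of the 6 class II genes (log2, each centred on its mean over 12 arrays) against the summed linear signal of macrophage, dendritic cell and B cell markers on each array, coloured by genotype, with circles for array set 1 and triangles for array set 2. Tnfr1-/- replicate 2 lies at the top in each panel, at a macrophage sum of 10038 and a B cell sum of 648. Tnfr1,2-/- replicate 2 is next, at a dendritic cell sum of 829 and a macrophage sum of 5436, the latter within the wildtype range.

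Without replicate 2 of Tnfr1,2-/- and replicate 2 of Tnfr1-/-, both left out after their values were seen, 0 of 6 class II genes were called in each comparison (limma). H2-Aa then had log2 changes of 0.14 in Tnfr1,2-/- and 0.52 in Tnfr1-/-, H2-Eb1 0.05 and 0.19, and Cd74 -0.37 and 0.21. The estimate of H2-Aa over the Tnfr1 locus went from 0.52 to 0.06 and that of H2-Eb1 from 0.21 to 0.01.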

How the data were processed

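RNA of 12 glomerular cultures, 3 per genotype, was labelled and hybridized to Affymetrix Mouse Genome arrays. The deposited matrix gives log2 values, which the authors obtained by robust multichip averaging (RMA) of all 12 arrays at once, and no further scaling was applied here. RMA compresses differences of dim probe sets, detection calls were not used here, and the number of arrays limits the precision.

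Of 45101 probe sets, 64 were controls, 34945 others carried exactly 1 gene symbol in the platform annotation, 932 several and 9160 none, and the last 2 kinds were left out. For each gene, the brightest probe set by mean was kept. The 4 genotypes were fitted together with limma 3.58.1 in R 4.3.3, which left 8 residual degrees of freedom, and Benjamini-Hochberg adjustment covered every gene tested. Genes were called at an adjusted p under 0.05 and at least 1.5-fold. SAM was written anew. Exact permutation tests were two-sided and used all regroupings of the arrays compared. The code was tested on simulated data.

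The members and the gene lists were chosen with earlier results of these data known. Named were all members, list genes called against wildtype or for the Tnfr1 locus (otherwise up to 2 per list with the smallest p), up to 3 markers per list with the highest mean, the receptor genes and the 8 genes of most similar profile. The class I list was an exception: of its called genes only Psmb8, Psmb10 and Tapbp were given with their changes. Ctss, Cd80, Cd86, Ifng, Marchf1, H2-Oa, H2-Ea, H2-K1, H2-D1, B2m and the neighbouring genes were named after their values were seen. The alternatives were averaging all probe sets of each gene, testing each probe set, SAM, the 6 arrays compared alone, a variance trend, weights per array, a 2-fold threshold or none, median centring, cyclic loess, dim probe sets or those of several transcripts left out, blocks for replicate number and array set, each array left out and each array set alone. Leaving out both arrays with the highest H2-Aa was chosen after seeing the data. Promoter sequences were those of RefSeq (GRCm38.p6).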

Additional observations from a re-analysis of the deposited data

How the results depend on the processing

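The 9 counts of class II genes called were recomputed under 237 combinations of comparison and setting and stayed at 0 in 236, the exception being the 2 genes called in Tnfr1,2-/- with array weights. Of 802 values of single class II genes under other settings, 741 kept their sign and side of the threshold, 53 changed sign, 2 became called and 6 moved within an array set. The cause was not tested, and no class II value that changed sign was called. Among the 5 other genes followed over the Tnfr1 locus, calls were lost under other settings 19 times: Rfx5 with 1 array left out, both arrays left out (adjusted p = 0.188), all probe sets (0.0755), cyclic loess (0.0623), a variance trend (0.0521), probe sets of several transcripts left out (0.0510) and the 2-fold threshold, Cd40 and Cd274 with the 2-fold threshold, and Icosl without both arrays. None of the 5 changed sign.

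With all probe sets of each gene averaged, H2-Ab1 was at -0.24 in Tnfr1,2-/-, -0.069 in Tnfr1-/-, -0.21 for the Tnfr1 locus and -0.026 for the Tnfr2 locus, H2-DMa at -0.026 in Tnfr1,2-/- and -0.11 in Tnfr2-/-, and Ciita at -0.00077 in Tnfr1-/-, -0.0074 in Tnfr2-/- and -0.060 for the Tnfr2 locus. With array weights, Cd74 was at 0.27 in Tnfr1,2-/-, 0.18 for the Tnfr1 locus and 0.089 for the Tnfr2 locus, and Ciita at -0.030 in Tnfr1-/-. Without probe sets of several transcripts, Ciita was at -0.19 in Tnfr2-/- and -0.25 for the Tnfr2 locus. With array set as a block, Cd74 was at 0.075 in Tnfr1,2-/-, 0.039 for the Tnfr1 locus and 0.037 for the Tnfr2 locus, and H2-DMa at 0.0040 for the Tnfr2 locus. Without both arrays of highest H2-Aa, H2-Ab1 was at -0.079 in Tnfr1,2-/-, -0.033 in Tnfr1-/- and -0.15 for the Tnfr1 locus, Ciita at -0.055 in Tnfr1-/- and H2-DMa at 0.019 for the Tnfr2 locus.

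Leaving out 1 array at a time, Cd74 ranged from -0.37 to 0.35 in Tnfr1,2-/-, from -0.22 to 0.19 for the Tnfr1 locus and from -0.26 to 0.17 for the Tnfr2 locus. H2-Ab1 ranged from -0.079 to 0.22 in Tnfr1,2-/-, from -0.033 to 0.36 in Tnfr1-/-, from -0.056 to 0.14 for the Tnfr1 locus and from -0.032 to 0.17 for the Tnfr2 locus. H2-DMa ranged from -0.075 to 0.25 in Tnfr1,2-/-, from -0.060 to 0.33 in Tnfr2-/- and from -0.22 to 0.037 for the Tnfr2 locus. Ciita ranged from -0.055 to 0.085 in Tnfr1-/-, H2-Aa from -0.11 to 0.36 and H2-Eb1 from -0.034 to 0.19 for the Tnfr2 locus.

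The class I genes that fell in Tnfr1,2-/- numbered 11 with array weights, and those in Tnfr1-/- 1 with the 6 arrays alone and 2 to 5 with 1 array left out. With the replicate number as a block, 0 of 6 class II genes were called in each comparison (limma, H2-Aa adjusted p = 0.245 in Tnfr1,2-/-) and 10 class I genes fell in Tnfr1,2-/-. Of 18 pairs of arrays with the same number, 15 correlated above 0.1 in their deviations from the genotype means, the lowest at -0.23, and the 3 others all involved Tnfr1,2-/- replicate 2, so the numbers were not taken as pairing, while 12 of 12 pairs of replicates 1 and 3 were above 0.1. Over all genes, Tnfr1,2-/- had 236 calls, 130 to 269 with 1 array left out, 1035 with array weights, 597 with the replicate block and 388 with the array set block, and Tnfr1-/- had 219, 118 to 246, 356, 437 and 470. Tnfr1-/- had 97 with the 6 arrays alone. For the Tnfr1 locus the 459 calls became 715 with array weights and 730 with the replicate block. Tnfr2-/- had 0 calls and up to 4 under other settings.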
